A study of Anser cygnoides with 12 samples.

Results

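The 12 jejunum libraries of this goose feeding study divided cleanly by a pair of transcription factor genes, GATA4 and HOXA10. The sides were chosen by these values: a library was placed on the GATA4 side where its FPKM of GATA4 exceeded its FPKM of HOXA10, and on the HOXA10 side otherwise. FPKM is the number of mapped fragments, adjusted for transcript length and for library size. By this rule, 7 of the 12 libraries fell on the GATA4 side and 5 on the HOXA10 side. The division is no group of the study. It was read from the same libraries that it divides, so the values of GATA4 and HOXA10 are a description without a test, and the tests of other genes say how closely a gene followed the division.

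GATA4 is a zinc finger transcription factor of the intestinal epithelium. In the mouse, it is made in the proximal small intestine and is missing from the distal ileum, and it holds the genes of the proximal gut, such as those of fat and cholesterol uptake, at their high level there. HOX genes are homeobox transcription factors that carry positional information along the body and the gut, and genes late in a cluster, such as HOXA10, are typical of more posterior tissue. The absorptive cell of the small intestine, the enterocyte, also differs along the gut. In mammals, fat and iron are taken up mostly in the upper part, and bile acids and vitamin B12 in the ileum.

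RNA was sequenced from jejunal tissue of female Sichuan white geese (Anser cygnoides), which were 250 days old and were fed for 12 weeks on a corn and soybean meal diet without wheat germ (Con, 0%), or on diets with 21.8% (LWG) or 43.6% wheat germ (HWG), 4 geese each. The labels give the jejunum for all 12 libraries and no position along it, so whether the pieces came from different positions was not tested. A library is named by its diet and its number in the labels. The GATA4 side held Con 1, Con 3, LWG 3, LWG 4, HWG 1, HWG 2 and HWG 3, and the HOXA10 side held Con 2, Con 4, LWG 1, LWG 2 and HWG 4. Each diet was therefore on both sides: Con and LWG with 2 libraries on each, and HWG with 3 on the GATA4 side and 1 on the HOXA10 side. Total counts ran from 40159187 to 45686956 per library.

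On the GATA4 side, GATA4 stood at 14.6 (Con 1), 10.4 (Con 3), 7.32 (LWG 3), 6.53 (LWG 4), 4.8 (HWG 1), 6.76 (HWG 2) and 12 FPKM (HWG 3), and HOXA10 was at 0.0656 FPKM or less in all 7 libraries, with 0 in 3 of them. On the HOXA10 side, HOXA10 stood at 4.0 (Con 2), 4.21 (Con 4), 2.22 (LWG 1), 11 (LWG 2) and 14.6 FPKM (HWG 4). GATA4 was at 0.491 FPKM in Con 2 and at 0.0756 FPKM or less in the other 4. The library just inside the GATA4 side was HWG 1, with 4.8 FPKM of GATA4 against 0.0245 FPKM of HOXA10. The library just outside it was Con 2, with 0.491 FPKM of GATA4 against 4.0 FPKM of HOXA10. No library had both genes above 1 FPKM. The raw counts of the pair, which come from the same libraries, gave the same side for all 12 and are no separate support.

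**Figure D1:**
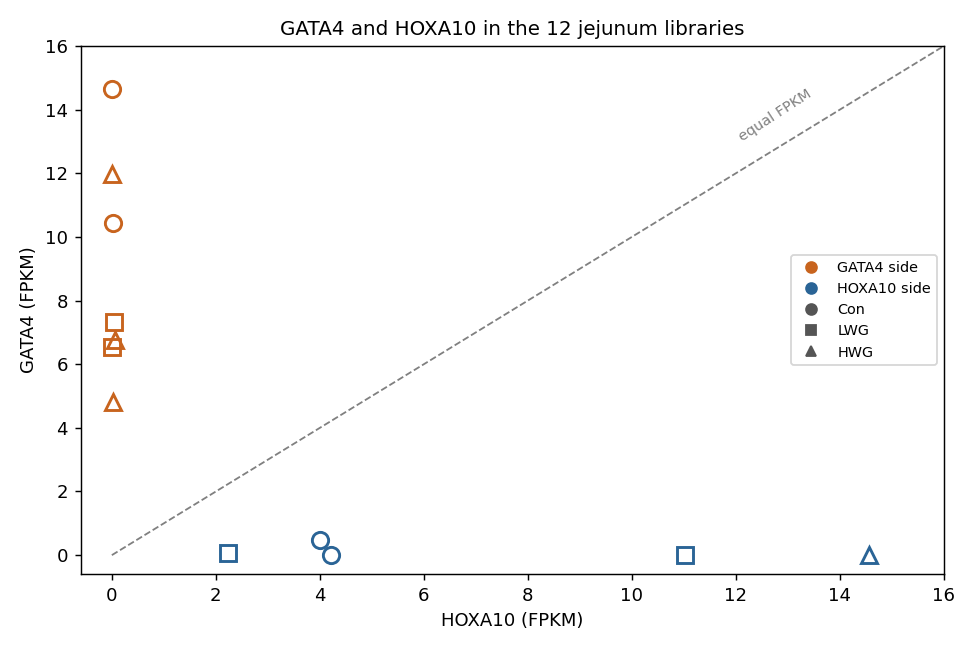
GATA4 against HOXA10, both in FPKM as deposited, in each of the 12 libraries; color marks the side, symbol shape the diet, and the dashed line equal values. The 7 libraries of the GATA4 side lie along the upright axis at 4.8 to 14.6 FPKM of GATA4, and the 5 of the HOXA10 side lie along the level axis at 2.22 to 14.6 FPKM of HOXA10.

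The pieces also differed in their makeup within a side. The summed level of 14 smooth muscle marker genes, given as TMM-scaled CPM (counts brought to a common library size after scaling by the trimmed mean of M-values), was 24809 in HWG 1 and 38894 in HWG 2, against 6403 to 18889 in the other 5 libraries of the GATA4 side. On the HOXA10 side it was 11005, 22033, 9587, 11777 and 16096 in Con 2, Con 4, LWG 1, LWG 2 and HWG 4. The summed level of 11 enterocyte markers was lowest in HWG 2 (3083) and HWG 1 (3438) on the GATA4 side, whose median was 8791, and was 3619, 3459, 7695, 6799 and 3106 on the HOXA10 side. HWG 1 and HWG 2 were the lowest libraries of the GATA4 side for many of the absorption genes below. In whole tissue, fewer cells of a type and less RNA per cell cannot be told apart.

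The sides were compared with edgeR, by its F-test on quasi-likelihood fits, on the counts of all 12 libraries in 1 fit, with the diet as a covariate. A gene is said to be called where its p-value, adjusted by the Benjamini-Hochberg method over all 14863 genes tested, was under 0.05. The pair of the rule was part of that adjustment and was left out afterwards, so calls are counted over the other 14861 genes. Differences are log2 values of the GATA4 side over the HOXA10 side, given ± SE, so a positive value is a higher level on the GATA4 side. The SE was derived from the F-test, as the absolute difference divided by the square root of F, and is no measure separate from the p-value. An unadjusted p under 0.05 was reached by 2986 of the 14861 genes, and such counts for the gene lists below stand against that number. Of the 14861 genes, 360 (2.42%) were called higher and 95 (0.639%) lower on the GATA4 side. The median size of the difference was 0.92 among the higher and 0.87 among the lower genes, with 48 higher and 7 lower genes past 2, and the median over all tested genes was -0.03. The sides did not overlap, with every CPM value of the GATA4 side beyond every value of the HOXA10 side, in 62 of the higher and 26 of the lower genes, whereas 94 (0.633%) of all tested genes were apart upward and 82 (0.552%) downward.

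All 360 higher genes were also higher on the GATA4 side within each of the 3 diets, and all 95 lower genes were lower within each. These genes were called in a fit over the same libraries, so a shared direction is favored by their choice and is no separate support. Among all tested genes, which were not chosen in this way, 20.6% were higher in each of the 3 diets and 23.8% lower. A test of whether the difference between the sides depended on the diet called 0 genes in edgeR, with 671 at an unadjusted p under 0.05 and a smallest adjusted p of 0.753. The sides were not the main division of the libraries over all genes. The first principal component took 24.5% of the variation and ran from -44.8 to 55.5 on the GATA4 side and from -59.7 to -1.3 on the HOXA10 side, so the sides overlapped on it.

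The number of calls depended on single libraries and on the diet term. Without the diet as a covariate, 15 genes were called higher and 7 lower. Of the genes described below, ONECUT2, ENPP7, ASAH2, CD36, SCARB1, NPC1L1, LCT, GLOD5, CCL28 and FAM149A were still called higher there and TFCP2L1, SLC12A2, REG4, MID1, CSRNP3, SLC16A7 and ASPG lower, and the other called genes lost their call, also those called in each fit that left out a library. Leaving out HWG 4, the HWG library of the HOXA10 side, gave 73 higher and 13 lower calls. Leaving out Con 4 gave 82 and 21, LWG 1 gave 89 and 27, Con 2 gave 92 and 20, LWG 4 gave 100 and 18, LWG 2 gave 108 and 21, LWG 3 gave 146 and 29 and Con 1 gave 153 and 33. Leaving out Con 3 gave 458 and 156, HWG 1 gave 481 and 128, HWG 2 gave 484 and 108 and HWG 3 gave 393 and 88. In all 12 of these fits, 47 of the 360 higher genes and 9 of the 95 lower genes were called. The balance of the calls depended on the scale: limma on log2(FPKM + 0.1) called 232 genes higher and 619 lower, with a median over all genes of -0.21, whereas limma on log2 CPM after TMM scaling, chosen after seeing the data, called 399 higher and 103 lower. No gene was called in opposite directions by any of these fits and the edgeR fit above.

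Among the transcription factor genes of the epithelium, 2 of 28 were higher on the GATA4 side (GATA5 and ONECUT2), 2 were lower (TFCP2L1 and FOXA1), and the median difference of the list was 0.00. The shares among all tested genes were 2.42% higher and 0.639% lower. GATA5, a close relative of GATA4 in the gut, had a lowest, median and highest level of 48.8 (HWG 2), 92.2 and 251 CPM (LWG 4) on the GATA4 side. On the HOXA10 side, listed here and below in the order Con 2, Con 4, LWG 1, LWG 2 and HWG 4, it stood at 44.7, 22.3, 56.8, 39.1 and 26.1 CPM. LWG 4 stood far above the rest, and 5 of the 7 GATA4-side libraries were above all of the HOXA10 side. The difference was 1.57 ± 0.26 (adjusted p 0.0129), and it was called in each of the 12 fits that left out a library. GATA6, the third GATA factor of the intestine, was not called, with 21.9 to 49.7 CPM on the GATA4 side and 24.6 to 37.7 CPM on the HOXA10 side (0.25 ± 0.21, adjusted p 0.549).

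ONECUT2, a transcription factor of the CUT homeobox family, was nearly confined to the GATA4 side, with 0.497 (HWG 2), 1.93 and 2.83 CPM (HWG 3), against 0.085, 0, 0, 0.148 and 0 CPM. No library overlapped, and the HOXA10 side rested on 10 counts in all. ONECUT2 was high enough to be tested only through the GATA4 side, so its call is a description and no separate support. The difference was 5.36 ± 0.95 (adjusted p 0.0171), with an adjusted p of 0.0577 when HWG 4 was left out. CDX1, a homeobox factor of the whole intestinal epithelium, stood at 21.4 to 59.9 CPM on the GATA4 side and 33.6 to 39.2 CPM on the HOXA10 side and was not called (0.28 ± 0.18, adjusted p 0.405). CDX4, another caudal factor, was at 9.84 to 19.9 CPM on the GATA4 side and at 14.9 to 27.7 CPM on the HOXA10 side (-0.70 ± 0.20, adjusted p 0.0706, not called).

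TFCP2L1, a factor of the grainyhead family, had the smallest p of all lower genes that have a symbol. It stood at 4.97 (Con 3), 7.1 and 13.1 CPM (HWG 3) on the GATA4 side, against 21, 30.5, 31.9, 24.2 and 59.7 CPM on the HOXA10 side. The sides were apart in every diet, and HWG 4 was the highest library. The difference was -2.23 ± 0.21 (adjusted p 0.000731), with -2.08 in Con, -2.07 in LWG and -2.64 in HWG, and the gene was called in all 12 leave-outs. FOXA1, a forkhead pioneer factor, was lower on the GATA4 side by a smaller margin, with 12.3 (LWG 4), 18.2 and 21.7 CPM (HWG 2), against 23.4, 21.4, 27.2, 31.4 and 33.8 CPM (-0.75 ± 0.16, adjusted p 0.0313). HWG 2 alone reached into the range of the HOXA10 side, and the call was kept without Con 3, HWG 1, HWG 2 or HWG 3 and lost without any other library (adjusted p up to 0.11).

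All 9 tested HOXA genes other than HOXA10 had a negative difference in the fit and within each diet, and 2 of them, HOXA9 and HOXA13, were called lower on the GATA4 side. The median of the 9 was -0.66, and 0.639% of all tested genes were called lower. HOXA9, the neighbor of HOXA10 in the cluster, stood at 3.51 (HWG 3), 6.42 and 9.05 CPM (HWG 1) on the GATA4 side and at 13.9, 16.2, 9.5, 33.7 and 52 CPM on the HOXA10 side. The sides were apart, with the highest levels in LWG 2 and HWG 4 (-2.13 ± 0.36, adjusted p 0.0146; 0.0936 without HWG 4). HOXA13, the last gene of the cluster, was at 0 in 6 of 7 libraries of the GATA4 side and had 4 counts there in all, against 0, 0.225, 0.502, 5.32 and 2.49 CPM on the HOXA10 side (adjusted p 0.016; 0.131 without HWG 4). It too was highest in LWG 2 and HWG 4 and was at 0 in Con 2. HOXA13 was high enough to be tested only through the HOXA10 side, so its call is a description and no separate support. HOXA11 was too low to be tested, with 11 counts over the GATA4 side and 0.276, 0.0817, 0, 2.21 and 1.57 CPM on the HOXA10 side.

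HOXA3, a more anterior gene of the cluster, stood at 34 to 66 CPM on the GATA4 side and 55.1 to 95.6 CPM on the HOXA10 side (-0.66 ± 0.19, adjusted p 0.0708). HOXA4, HOXA5, HOXA6 and HOXA7 had differences of -0.60, -0.66, -0.72 and -0.33, none of them called, and their sides overlapped. Of the 15 tested genes of the HOXB, HOXC and HOXD clusters, 0 were called by edgeR and 0 by DESeq2, and the median was -0.20. An unadjusted p under 0.05 was reached by 4 of them, against 2986 of all 14861 genes.

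**Figure D2:**
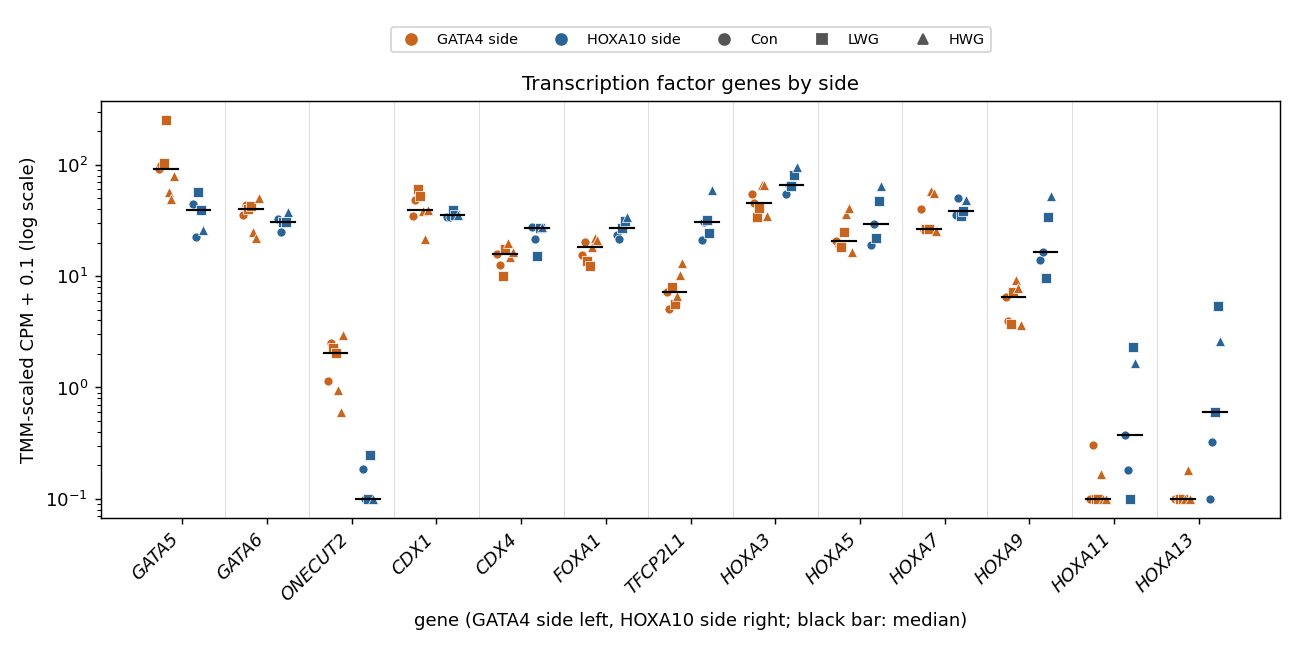
TMM-scaled CPM plus 0.1, on a log scale, of 13 transcription factor genes in each library, GATA4 side left and HOXA10 side right for each gene; symbol shape marks the diet and the black bar the median. TFCP2L1 and HOXA9 are lower in all 7 GATA4-side libraries and ONECUT2 is higher in all 7, while GATA6, CDX1 and HOXA7 overlap.

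The genes of fat absorption gave the largest share of calls of any list. Of the 20 tested genes, 14 were higher on the GATA4 side, against 2.42% of all genes, 0 were lower, and the median difference was 1.66. The called genes covered the route of dietary fat and sterol through the enterocyte: uptake at the brush border (CD36, SCARB1, NPC1L1), carriage in the cell (FABP2), activation and storage (ACSL5, MOGAT2, LPCAT3, PLIN2), packing into lipoproteins and their export from the endoplasmic reticulum (APOA1, APOB, MTTP, SAR1B), and return of sterols to the lumen (ABCG5, ABCG8). MOGAT2, PLIN2, ABCG5 and ABCG8 were chosen after their values were seen. Without HWG 1 or without HWG 2, 17 members of the list were called higher, and without HWG 3, 16 were. With an enterocyte marker score as a covariate (all enterocyte markers but FABP2, chosen after seeing the data), 12 were. Without HWG 4, 3 were called, without Con 4 4, without Con 2 or LWG 1 5, without LWG 2 or LWG 4 6 and without Con 1 7. Without Con 3 or without LWG 3, 11 were.

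CD36, a fatty acid transporter, stood at 148 (HWG 1), 311 and 374 CPM (Con 3) on the GATA4 side and at 85.9, 103, 59.8, 65 and 79.7 CPM on the HOXA10 side. There was no overlap, with HWG 1 the lowest of its side and still above Con 4 (1.84 ± 0.23, adjusted p 0.00375). SCARB1, a receptor for lipoproteins that also takes up sterols and carotenoids, stood at 15.1 (HWG 1), 217 and 404 CPM (Con 3), against 16.9, 11.5, 12.8, 10.6 and 11.7 CPM. The HOXA10 side was narrow, and HWG 1 alone of the GATA4 side fell within it (3.69 ± 0.54, adjusted p 0.00731). NPC1L1, the cholesterol transporter of the brush border, was at 14.7 (HWG 2), 43.7 and 139 CPM (LWG 4), against 4.83, 2.41, 3.69, 5.81 and 5.06 CPM. Its sides were apart (3.66 ± 0.50, adjusted p 0.00572). These 3 genes were called in all 12 leave-outs.

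FABP2, the intestinal fatty acid-binding protein, was at 396 (HWG 1), 1799 and 7539.8 CPM (LWG 4) on the GATA4 side and at 228, 176, 1667, 1004 and 76 CPM on the HOXA10 side. LWG 4 stood far above the other libraries, the LWG libraries were the highest of the HOXA10 side, and 4 of 7 GATA4-side libraries lay above all of that side. The difference of 2.74 ± 0.62 (adjusted p 0.0369) was called without Con 3, LWG 3, HWG 1, HWG 2 or HWG 3 and not without any other library (adjusted p up to 0.117). FABP1, the related protein first named in liver, had a like difference and missed the threshold (2.91 ± 0.72, adjusted p 0.0506), with 68.5, 539 and 3351 CPM as lowest, median and highest level on the GATA4 side and 47.2, 62.3, 348, 441 and 24.2 CPM on the HOXA10 side. It was called without HWG 1, HWG 2 or HWG 3.

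Of the lipoprotein genes, APOA1 (LOC106039769), the main protein of high-density lipoprotein, was at 167 (HWG 2), 1588 and 3630.1 CPM (LWG 4), against 169.8, 226, 652, 425 and 54.2 CPM. APOB, the frame of the chylomicron, was at 177 (HWG 2), 2047 and 3548 CPM (LWG 3), against 243, 345, 856, 769.7 and 129 CPM. MTTP, which loads lipid onto it, was at 148 (HWG 2), 735 and 1044 CPM (Con 3), against 195, 195, 262, 343 and 139.5 CPM. For each of the 3, 5 GATA4-side libraries stood above all of the HOXA10 side, and HWG 1 and HWG 2 lay within its range. The differences were 2.85 ± 0.57 (adjusted p 0.0256) for APOA1, 2.45 ± 0.60 (adjusted p 0.049) for APOB and 1.58 ± 0.38 (adjusted p 0.0433) for MTTP. APOB and MTTP were called when HWG 1, HWG 2 or HWG 3 was left out and lost their call without any other library (adjusted p up to 0.144 and 0.117). APOA1 lost its call without Con 2, Con 4, LWG 1, LWG 2, LWG 4 or HWG 4 (up to 0.0936). SAR1B, a GTPase that moves chylomicrons out of the endoplasmic reticulum, differed by 1.15 ± 0.20 (adjusted p 0.015) and lost its call without HWG 4 alone (adjusted p 0.052).

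The sterol exporters ABCG5 and ABCG8, which work as a pair, differed by 2.04 ± 0.46 (adjusted p 0.0374) and 2.94 ± 0.61 (adjusted p 0.028). ABCG8 stood at 41.3 to 565 CPM on the GATA4 side and 10.8 to 158 CPM on the HOXA10 side, so the ranges overlapped. ACSL5, which activates fatty acids, differed by 1.71 ± 0.31 (adjusted p 0.0196), and LPCAT3, which remodels phospholipids, by 0.68 ± 0.12 (adjusted p 0.016). MOGAT2, which rebuilds diglyceride from monoglyceride (1.61 ± 0.35, adjusted p 0.032), and PLIN2, a coat protein of lipid droplets (0.72 ± 0.17, adjusted p 0.0446), completed the called members. Each of these 6 lost its call in at least 3 of the 12 leave-outs, always including those without Con 4 and HWG 4.

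Retinoid and carotenoid genes showed 2 calls of 14, both higher, against 2.42% higher among all genes, and a list median of 0.03. In this list 8 genes had a positive and 6 a negative difference, and the most negative, -4.60, was not called. RBP2, the retinol-binding protein of the enterocyte, had the smallest p of all higher genes that have a symbol. It stood at 34.3 (HWG 1), 132 and 918 CPM (LWG 4) on the GATA4 side, against 9.04, 19.1, 4.81, 8.27 and 1.83 CPM on the HOXA10 side. Again there was no overlap, and LWG 4 stood far above the rest of its side. The difference was 4.99 ± 0.57 (adjusted p 0.00337), with 3.75 in Con, 6.55 in LWG and 4.5 in HWG. BCO1, which cleaves beta-carotene into retinal, was at 27.8 (HWG 1), 135 and 299 CPM (LWG 4), against 27.3, 21, 27, 22 and 14 CPM. HWG 1 was only just above Con 2, the highest of the HOXA10 side (2.65 ± 0.33, adjusted p 0.00375). Both were called in all 12 leave-outs.

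All 17 tested brush border hydrolase genes had a positive difference in the fit, with a median of 1.31, against -0.03 over all genes. Within the diets, 17 were positive in Con, 14 in LWG and 17 in HWG. By edgeR 3 were called higher, against 2.42% of all genes. An unadjusted p under 0.05 was reached by 12, against 2986 of all 14861 genes. DESeq2 called 5 higher and 0 lower, against 990 and 447 of all 14861 genes. ENPP7, the sphingomyelinase of the intestinal lumen, stood at 27.1 (HWG 1), 258 and 445 CPM (LWG 3) on the GATA4 side and at 3.93, 0.307, 1.27, 1.13 and 1.05 CPM on the HOXA10 side. ASAH2, the neutral ceramidase that acts after it on dietary sphingolipid, was at 6.44 (HWG 1), 365 and 599 CPM (HWG 3), against 2.91, 1.35, 3.76, 2.98 and 1.18 CPM. Both were apart between the sides, and both were lowest on the GATA4 side in HWG 1. Their differences were 7.43 ± 0.92 (adjusted p 0.00375) and 6.98 ± 1.06 (adjusted p 0.00817). LCT, named for the lactase of mammals, was at 20.4 (HWG 1), 245 and 447 CPM (LWG 4), against 13.2, 8.58, 11.6, 7.04 and 3.91 CPM. It too was apart (4.7 ± 0.64, adjusted p 0.00572), and the 3 genes were called in all 12 leave-outs.

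The other hydrolases did not pass the edgeR test. TMPRSS15, the enteropeptidase that starts the activation of trypsin, stood at 5.89 (HWG 1), 143 and 237 CPM (LWG 4) on the GATA4 side, against 8.59, 4.37, 74.6, 9.97 and 1.7 CPM. LWG 1 was far above the other libraries of the HOXA10 side, and the difference of 3.74 ± 1.05 had an adjusted p of 0.0708. It passed when HWG 3 was left out. SI, the sucrase-isomaltase, overlapped fully, with 798 to 4008 CPM on the GATA4 side and 992 to 4051 CPM on the HOXA10 side (0.72 ± 0.41, adjusted p 0.353). The table holds further sucrase-isomaltase-like genes, and how reads were divided among like copies was not examined, so the value of each is uncertain.

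Of 21 transporters of sugars, peptides and amino acids, 0 were called by edgeR, with 12 at an unadjusted p under 0.05, and DESeq2 called 5 higher and 1 lower. Their median was 0.77, and 2986 of all 14861 genes were at such an unadjusted p. SLC5A1 (LOC106031322), the sodium-glucose cotransporter, stood at 528 to 4042 CPM on the GATA4 side and 236 to 1770.0 CPM on the HOXA10 side (1.62 ± 0.58, adjusted p 0.142). SLC15A1, the peptide transporter, was at 390.5 to 2717 CPM and 231 to 1788 CPM (1.35 ± 0.70, adjusted p 0.308), and its difference was negative within LWG. The member with the most negative value was SLC7A9, part of the carrier for cystine and basic amino acids. It stood at 0.928 (Con 1), 6.04 and 163 CPM (LWG 3) on the GATA4 side and at 77.3, 125, 322, 647 and 151 CPM on the HOXA10 side (-2.69 ± 0.93, adjusted p 0.13). Within each diet the mean log2 difference was negative (-3.32 in Con, -3.9 in LWG and -4.57 in HWG), and the gene was called when Con 3 was left out.

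**Figure D3:**
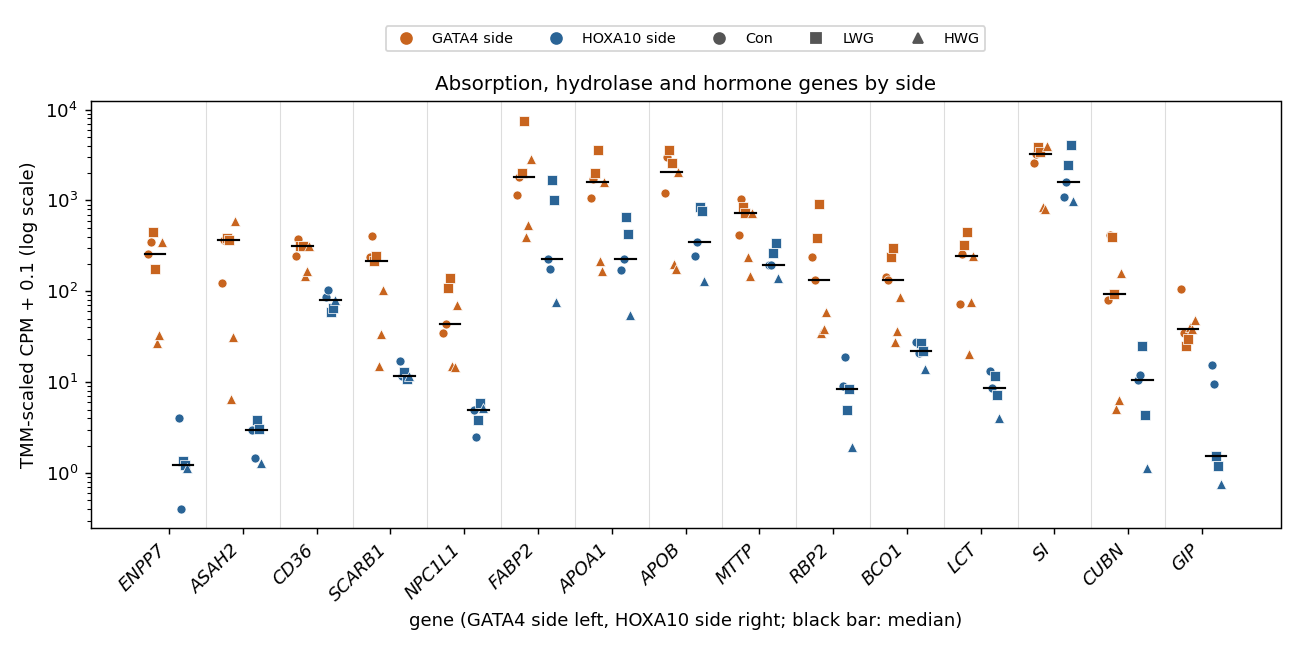
TMM-scaled CPM plus 0.1, on a log scale, of 15 absorption, hydrolase and hormone genes in each library, GATA4 side left and HOXA10 side right for each gene; symbol shape marks the diet and the black bar the median. ENPP7, ASAH2, CD36, NPC1L1, RBP2, BCO1, LCT and GIP are higher in all 7 GATA4-side libraries, and SI overlaps.

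Among 13 genes of vitamin uptake, 3 were higher and 0 lower on the GATA4 side (median 0.77), against 2.42% higher among all genes. CUBN (LOC106030353) and AMN encode the cubilin and amnionless proteins, which form the receptor for vitamin B12 bound to intrinsic factor. CUBN stood at 5.0 (HWG 1), 93.9 and 416 CPM (Con 3) on the GATA4 side, against 10.5, 12, 24.7, 4.26 and 1.03 CPM on the HOXA10 side. AMN was at 12.7 (HWG 2), 39.2 and 101 CPM (Con 3), against 12.4, 11.8, 15.6, 24.4 and 4.5 CPM. For both, 5 of 7 libraries were above all of the HOXA10 side, and HWG 1 and HWG 2 were not. The differences were 4.58 ± 1.02 (adjusted p 0.0365) and 2.13 ± 0.41 (adjusted p 0.0236), and CUBN was called without HWG 1, HWG 2 or HWG 3 and not without any other library (adjusted p up to 0.11). AMN lost its call without Con 2, Con 4, LWG 1, LWG 3 or HWG 4 (up to 0.0892). The third called gene, the riboflavin transporter SLC52A3, differed by 0.77 ± 0.19 (adjusted p 0.0462) and kept its call without HWG 1 or HWG 2 alone.

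Of 10 calcium and vitamin D genes, 1 was called higher and 0 lower, and of 15 iron, copper and zinc genes 2 were higher and 0 lower, against 2.42% higher among all genes. The medians of the lists were 1.19 and 0.30, and 8 genes of each were at an unadjusted p under 0.05. DESeq2 called 5 higher and 1 lower of the calcium genes and 5 higher and 0 lower of the metal genes. CALB1, the calcium-binding calbindin, had the widest spread of any named gene, with 9.59 (HWG 2), 998 and 19958 CPM (LWG 3) on the GATA4 side and 411, 609.7, 13.7, 17.9 and 12.2 CPM on the HOXA10 side. Con 2 and Con 4 stood well above the other HOXA10-side libraries, and the difference of 5.72 ± 1.71 was not called (adjusted p 0.0879), though DESeq2 called it (adjusted p 0.000522). CLDN2, a claudin that lets cations and water pass between cells, was the called gene of the calcium list (4.78 ± 0.93, adjusted p 0.0242). It stood at 0.311 (HWG 2), 2.53 and 24.6 CPM (LWG 3), against 1.66, 0.429, 0.328, 0.295 and 0 CPM. Only Con 1 (19.4 CPM), Con 3 (12.45 CPM) and LWG 3 rose above 2.53 CPM. CLDN2 lost its call without Con 1, Con 4, LWG 1, LWG 2, LWG 3 or HWG 4 (adjusted p up to 0.0753). The called metal genes were SLC31A1, the copper importer (1.4 ± 0.33, adjusted p 0.0438), and SLC30A10, a manganese exporter (2.29 ± 0.54, adjusted p 0.0421). Both were called when HWG 1, HWG 2 or HWG 3 was left out and otherwise not (up to 0.122 and 0.108). The iron genes SLC40A1, the exporter ferroportin, and CYBRD1 (LOC106029992), a ferric reductase, differed by -0.37 ± 0.14 (adjusted p 0.161) and -0.15 ± 0.25 (adjusted p 0.791).

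The list of ion and water transport divided in both directions, with 3 of 28 genes higher, 1 lower and a median of 0.02. Among all genes, 2.42% were higher and 0.639% lower. AQP10, a channel for water and glycerol, stood at 0.819 (HWG 1), 6.11 and 18.8 CPM (LWG 4) on the GATA4 side. On the HOXA10 side it was at 0.298, 0, 0.0874, 0 and 0.218 CPM, with 28 counts in all. AQP10 was high enough to be tested only through the GATA4 side, so its call is a description and no separate support. SCNN1B, a subunit of the epithelial sodium channel, was at 16.8 (HWG 2), 19.4 and 28 CPM (Con 3), against 8.87, 4.17, 6.58, 12.7 and 11.7 CPM. The sides were apart for both (5.81 ± 1.09, adjusted p 0.0224, and 1.31 ± 0.27, adjusted p 0.0279). AQP10 was not called without Con 1, Con 2, Con 4, LWG 1 or LWG 2 (up to 0.0624), nor SCNN1B without Con 1, Con 2, Con 4, LWG 1, LWG 3, LWG 4 or HWG 4 (up to 0.0674). CA4, a membrane-bound carbonic anhydrase, differed by 1.21 ± 0.20 (adjusted p 0.0143; 0.0537 without HWG 4) although its ranges overlapped, and the LWG libraries were the highest on the HOXA10 side. SLC12A2, the basolateral chloride importer of secreting cells, went the other way, with 45.7 (LWG 4), 65.6 and 72.9 CPM (Con 1) on the GATA4 side and 103, 144, 80.2, 114 and 135 CPM on the HOXA10 side. The sides were apart and the difference was nearly equal in each diet (-0.96 ± 0.13, adjusted p 0.00572; -0.91 in Con, -0.96 in LWG and -0.99 in HWG), and the gene was called in all 12 leave-outs.

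Genes of bile acid handling, several of which mark the ileum in the mouse, lay on both sides of 0. Of 11 tested, 7 had a positive and 4 a negative difference, 2 were called higher and 0 lower, against 2.42% higher among all genes, and the median was 1.14. An unadjusted p under 0.05 was reached by 9 of them, against 2986 of all 14861 genes, and DESeq2 called 5 higher and 1 lower. SLC10A2, the apical bile acid transporter, stood at 1.2 (Con 1), 31 and 107 CPM (Con 3) on the GATA4 side, against 39.2, 57.1, 162, 221 and 16.1 CPM. The difference of -0.74 ± 1.06 was not called (adjusted p 0.739), and both extremes of the GATA4 side were Con libraries. Its mean log2 difference was negative in every diet, at -2.04 in Con, -2.55 in LWG and -0.71 in HWG. With the enterocyte score in the edgeR fit it was -2.77, also not called (adjusted p 0.0753). FABP6, the bile acid-binding protein of the ileal enterocyte, was high on both sides, with 3226 (HWG 1), 4638 and 22451 CPM (LWG 4), against 3315, 4778, 7666, 7546 and 693 CPM. HWG 4 alone lay far below the rest (1.14 ± 0.37, adjusted p 0.112). NR1H4, the bile acid receptor FXR, was at 49.8 to 77 CPM on the GATA4 side and at 70.2 to 172 CPM on the HOXA10 side (-0.61 ± 0.22, adjusted p 0.148).

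The called pair was SLC51A, a subunit of the basolateral bile acid exporter, and FGF19, the hormone that signals bile acid uptake to the liver. SLC51A was at 95.2 (HWG 1), 127 and 331 CPM (LWG 3) on the GATA4 side and at 82.1, 106, 97.4, 157 and 55.7 CPM on the HOXA10 side. The sides overlapped, and the difference of 0.92 ± 0.18 (adjusted p 0.0256) lost its call without Con 1, Con 2, LWG 1, LWG 2, LWG 3, LWG 4 or HWG 4 (up to 0.0937). Its partner subunit SLC51B was not called (1.79 ± 0.55, adjusted p 0.0938). FGF19 was at 1.72 (HWG 2), 18.8 and 238 CPM (LWG 3), against 1.93, 1.08, 12, 2.19 and 1.37 CPM. LWG 3 stood far above its side and LWG 1 above the other side, and the call (3.91 ± 0.95, adjusted p 0.048) was kept without HWG 1 or HWG 2 and lost without any other library (up to 0.113).

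Gut hormones were sorted into those listed as proximal and those listed as distal. Of 5 proximal genes tested, 4 were at an unadjusted p under 0.05, the median was 0.97, and DESeq2 called 3 higher. GIP, the incretin of the upper small intestine in mammals, was the only edgeR call of the 5, against 2.42% higher among all genes. It stood at 24.9 (LWG 3), 38.4 and 107 CPM (Con 1) on the GATA4 side and at 15.5, 9.56, 1.44, 1.11 and 0.655 CPM on the HOXA10 side. No GATA4-side library reached down to the HOXA10 side, with Con 1 far above its own side and Con 2 and Con 4 above the wheat germ libraries of the other. The difference was 3.94 ± 0.54 (adjusted p 0.00572), with 2.31 in Con, 4.38 in LWG and 5.91 in HWG, and it was called in all 12 leave-outs but not without the diet term (adjusted p 0.137). CCK, which drives gall bladder and pancreas, overlapped (26.9 to 72 CPM on the GATA4 side, 21.6 to 69.8 CPM on the HOXA10 side; 0.51 ± 0.22, adjusted p 0.217), and somatostatin, SST (LOC106044792), was not called (0.97 ± 0.27, adjusted p 0.0671). A gene named SCT in the RefSeq table (LOC106047032), described in the deposited table as glucagon-like and so uncertain as secretin, was not called either (1.77 ± 0.48, adjusted p 0.0647); it passed without LWG 4.

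None of the 3 distal hormone genes was called by edgeR, with 1 at an unadjusted p under 0.05, and DESeq2 called 1 of them lower. NTS, the neurotensin of the lower small intestine, stood at 92.2 (HWG 3), 137 and 155 CPM (HWG 1) on the GATA4 side and at 166, 168, 187, 299 and 206 CPM on the HOXA10 side. Every GATA4-side library was below every HOXA10-side one, but the difference was small and did not pass (-0.62 ± 0.17, adjusted p 0.0712; called without HWG 1). GCG, which encodes the glucagon-like peptides, was at 78.2 (HWG 3), 100.3 and 180.4 CPM (Con 1), against 118, 142, 138, 222 and 119.6 CPM. Con 1 stood above 4 of the 5 HOXA10-side libraries, and the gene was not called (-0.33 ± 0.21, adjusted p 0.413).

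The crypt is where the stem cells of the epithelium divide under Wnt signals. Of 16 tested genes listed for crypt stem cells and Wnt signaling, 4 were lower on the GATA4 side, against 0.639% of all genes, 0 were higher, and the median was -0.61. The summed level of the list overlapped. It was 628 to 1880 CPM (median 1230) on the GATA4 side and 724 to 1390 CPM (median 1048) on the HOXA10 side. EPHB3, a receptor that keeps cells in place along the crypt, stood at 25.2 (LWG 3), 36.5 and 62.7 CPM (HWG 1) on the GATA4 side, against 73.9, 80, 61.2, 52.4 and 131 CPM on the HOXA10 side. AXIN2, a Wnt target that dampens the pathway, was at 17.8 (LWG 3), 50.5 and 68.9 CPM (HWG 2), against 92.5, 74.5, 50.9, 51.8 and 121 CPM. The muscle-rich HWG 1 and HWG 2 were the highest of their side, and the sides overlapped across diets while differing within each, by -1.13 in Con, -1.14 in LWG and -1.37 in HWG for EPHB3 and by -0.84 in Con, -1.22 in LWG and -0.98 in HWG for AXIN2. The fitted differences were -1.19 ± 0.13 (adjusted p 0.00337) and -1.0 ± 0.15 (adjusted p 0.00731), and both genes were called in all 12 leave-outs. Without the diet term neither was (adjusted p 0.154 and 0.318).

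LGR5, the stem cell receptor for R-spondins, was at 24.1 (LWG 4), 41.3 and 56.3 CPM (HWG 3), against 54.7, 47.7, 48.4, 65.8 and 80.4 CPM. RNF43, a ubiquitin ligase that removes Wnt receptors, was at 40.2 (LWG 3), 43.5 and 58.6 CPM (HWG 3), against 71.5, 56.5, 55.3, 85.2 and 104 CPM. A few GATA4-side libraries reached into the range of the HOXA10 side for each. The differences were -0.81 ± 0.15 (adjusted p 0.0236) and -0.74 ± 0.14 (adjusted p 0.0236). LGR5 lost its call without Con 1, Con 2, LWG 1, LWG 3, LWG 4 or HWG 4 (adjusted p up to 0.0642), and RNF43 without Con 2, LWG 2, LWG 3, LWG 4 or HWG 4 (up to 0.11). EPHB2, the partner receptor of EPHB3, was not called (-0.73 ± 0.19, adjusted p 0.0597). Of 19 cell cycle genes, 0 were called by edgeR, with 0 at an unadjusted p under 0.05 and 0 called by DESeq2, and their median was 0.18. The number of these 19 with a positive difference varied by diet, with 0 within Con, 18 within LWG and 14 within HWG. Their summed level was 1236 to 2258 CPM on the GATA4 side. On the HOXA10 side it was 2842, 3237, 781, 719 and 1476 CPM.

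The 15 lower genes that have a symbol and stood first by p held further members. REG4, a lectin made by secretory cells of the gut, stood at 53.5 (Con 3), 100.1 and 173 CPM (HWG 1) on the GATA4 side and at 265, 325, 188, 259 and 516 CPM on the HOXA10 side. All 7 GATA4-side libraries were below the HOXA10 side (-1.69 ± 0.24, adjusted p 0.00731; 0.0521 without HWG 4). SLC25A48, a mitochondrial carrier, was at 3.59 (Con 1), 11.7 and 39.7 CPM (LWG 4), against 28.7, 34.9, 144, 158 and 47.1 CPM. LWG 4 was the highest of the GATA4 side and both LWG libraries of the HOXA10 side were its highest, and the difference held within each diet (-2.24 ± 0.29, adjusted p 0.00551; -2.37 in Con, -2.61 in LWG and -2.03 in HWG). ADRA2A, an adrenergic receptor that slows secretion, was at 3.25 to 10.1 CPM on the GATA4 side and 9.24 to 16.3 CPM on the HOXA10 side (-1.51 ± 0.21, adjusted p 0.00728).

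MID1, a ubiquitin ligase bound to microtubules, was at 17.3 to 28.4 CPM on the GATA4 side and 34.6 to 57.3 CPM on the HOXA10 side (-1.04 ± 0.16, adjusted p 0.00852). The monocarboxylate transporter SLC16A7 (-0.94 ± 0.17, adjusted p 0.0203), the asparaginase ASPG (-1.21 ± 0.22, adjusted p 0.0212) and CSRNP3, a nuclear protein (-1.36 ± 0.23, adjusted p 0.0132), were also apart, as was MID1. SYDE2, a GTPase-activating protein, overlapped in HWG 2 alone (-0.91 ± 0.12, adjusted p 0.00572). SLC25A48, ADRA2A, MID1 and SYDE2 were called in all 12 leave-outs. CSRNP3 lost its call without HWG 4 (adjusted p 0.0681), ASPG without Con 4 or HWG 4 (up to 0.109) and SLC16A7 without Con 2, Con 4 or LWG 2 (up to 0.0548).

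The higher named genes not yet described, chosen for the smallest p, were called in all 12 leave-outs. GLOD5, which holds a glyoxalase domain, stood at 24.9 (HWG 2), 57.7 and 82.3 CPM (LWG 3) on the GATA4 side and at 9.65, 4.99, 6.86, 16.5 and 7.4 CPM on the HOXA10 side, with the sides apart (2.67 ± 0.32, adjusted p 0.00375). SEC14L2, a carrier of tocopherol and other lipids, was at 9.53 to 159.9 CPM, against 3.41 to 13.3 CPM (3.27 ± 0.45, adjusted p 0.00585), and HWG 2 alone fell within the HOXA10 side. CCL28, a chemokine of mucosal epithelium, was at 12.9 to 29.5 CPM, against 4.0 to 8.12 CPM, with the sides apart (1.89 ± 0.27, adjusted p 0.00674). OSBPL1A, an oxysterol-binding protein (1.59 ± 0.21), SCCPDH (1.27 ± 0.16) and FAM149A (2.2 ± 0.32) were apart as well, with adjusted p-values of 0.00572, 0.00375 and 0.00731. ANXA4, an annexin that binds membranes with calcium (1.2 ± 0.17, adjusted p 0.00585), and REEP6, a shaper of the endoplasmic reticulum (2.69 ± 0.37, adjusted p 0.00572), overlapped slightly.

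The deposited table assigns genes to KEGG pathways, and 230 pathways had at least 20 tested genes. They were counted without an enrichment test, and the pathways and genes named here were chosen after their values were seen. The citrate cycle had the highest share of higher genes, 9 of 35 (25.7%), against 2.42% of all genes, with 0 lower. Its called members included the enzymes or subunits FH, IDH3A, MDH1, MDH2, SDHB and SUCLA2. MDH2, the mitochondrial malate dehydrogenase, stood at 426 (HWG 2), 735 and 1249.7 CPM (LWG 4) on the GATA4 side and at 362, 344, 248, 282 and 255 CPM on the HOXA10 side, with the sides apart (1.39 ± 0.20, adjusted p 0.00731). SDHB, the iron-sulfur subunit of succinate dehydrogenase, was at 158 to 310.1 CPM, against 95.5 to 166 CPM, with HWG 2 alone overlapping (1.04 ± 0.15, adjusted p 0.00731). Both were called in all 12 leave-outs. In other metabolic pathways, 10 of 47 genes of fatty acid degradation, 10 of 50 of retinol metabolism, 10 of 43 of xenobiotic metabolism by cytochrome P450, 10 of 61 of glycolysis and 13 of 99 of oxidative phosphorylation were higher, each with 0 lower. Pathways share genes, so these counts are not independent.

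Markers of cell types were counted in the same way. Of 11 enterocyte markers, FABP2 alone was called by edgeR, against 2.42% higher among all genes, and the list's median was 0.57. An unadjusted p under 0.05 was reached by 6 of the 11, against 2986 of all 14861 genes. DESeq2, which gave no adjusted p for FABP2, called 3 higher. VIL1 (LOC106039322), the actin bundler of microvilli, stood at 180.2 to 866 CPM on the GATA4 side and 177 to 555 CPM on the HOXA10 side and was not called (0.96 ± 0.29, adjusted p 0.0929; called without HWG 2). Of 14 smooth muscle markers, 0 were called by edgeR, with 0 at an unadjusted p under 0.05 and 0 by DESeq2 (median -0.15), and ACTG2 and MYH11, the gamma actin and myosin of that muscle, differed by 0.55 ± 0.66 (adjusted p 0.689) and -0.16 ± 0.38 (adjusted p 0.854). MUC2 (LOC106038774), the main mucin of goblet cells, overlapped (37.5 to 365 CPM on the GATA4 side, 60.1 to 455 CPM on the HOXA10 side; 0.20 ± 0.49, adjusted p 0.859). No call by edgeR fell among 12 genes of mucus and goblet cells, 16 T and NK cell markers, 9 macrophage and granulocyte markers, 14 vessel, 12 fibroblast, 16 enteric neuron and glia markers and 10 common enteroendocrine genes, with 1, 1, 2, 4, 0, 4 and 2 genes at an unadjusted p under 0.05 in the same order. DESeq2 called 1 mucus, 1 macrophage, 1 vessel and 1 neuron gene lower and none of the others. All 14 vessel markers and 15 of the 16 neuron and glia markers had a negative difference in the fit. Their medians were -0.23 and -0.34, against -0.03 over all genes. Within the diets the direction was less uniform. Of the vessel markers, 7 were positive within Con, 0 within LWG and 2 within HWG, and of the neuron and glia markers 2, 2 and 3. Summed vessel markers stood at 384 to 846 CPM on the GATA4 side and 481 to 798 CPM on the HOXA10 side, and summed neuron and glia markers at 171 to 332 CPM and 238 to 335 CPM. Their part in the other differences was not tested.

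PAX5, a transcription factor of B cells, was the only edgeR call among 14 B and plasma cell markers, against 0.639% lower among all genes. The list's median was -0.57, with 4 positive and 10 negative differences and 4 genes at an unadjusted p under 0.05. DESeq2 called 1 higher and 2 lower. The summed level of the list went the other way. It was 1215 to 4900 CPM (median 3158) on the GATA4 side and 982 to 3105 CPM (median 1438.5) on the HOXA10 side. PAX5 stood at 0.152 (Con 3), 0.511 and 1.55 CPM (HWG 2) on the GATA4 side, against 1.38, 1.21, 36, 0.911 and 7.05 CPM, and LWG 1 stood far above every other library. The difference of -3.65 ± 0.85 (adjusted p 0.0416) was kept without LWG 1, LWG 2 or HWG 2 and lost without any other library (adjusted p up to 0.102). Pancreas acinar genes summed to 0.849 to 72.4 CPM on the GATA4 side and 4.15 to 8.09 CPM on the HOXA10 side, and liver markers to 4.85 to 11.3 CPM and 3.34 to 7.94 CPM.

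When the enterocyte marker score was added to the fit as a covariate, 230 genes were called higher and 66 lower, including 205 of the 360 and 33 of the 95. RBP2 at 5.08 (adjusted p 0.00389), ENPP7 at 6.42 (adjusted p 0.00198), LCT at 4.12 (adjusted p 0.00825), GIP at 4.08 (adjusted p 0.00683) and TFCP2L1 at -2.30 (adjusted p 0.00198) were among those still called. APOB had a smaller difference there, 1.26 (adjusted p 0.0204), as had CUBN, 2.84 (adjusted p 0.0493), and FGF19 was no longer called, 2.31 (adjusted p 0.135). With a smooth muscle score as a covariate instead, 555 genes were called higher and 162 lower, including all 360 of the higher and 94 of the 95 lower genes.

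**Figure D4:**
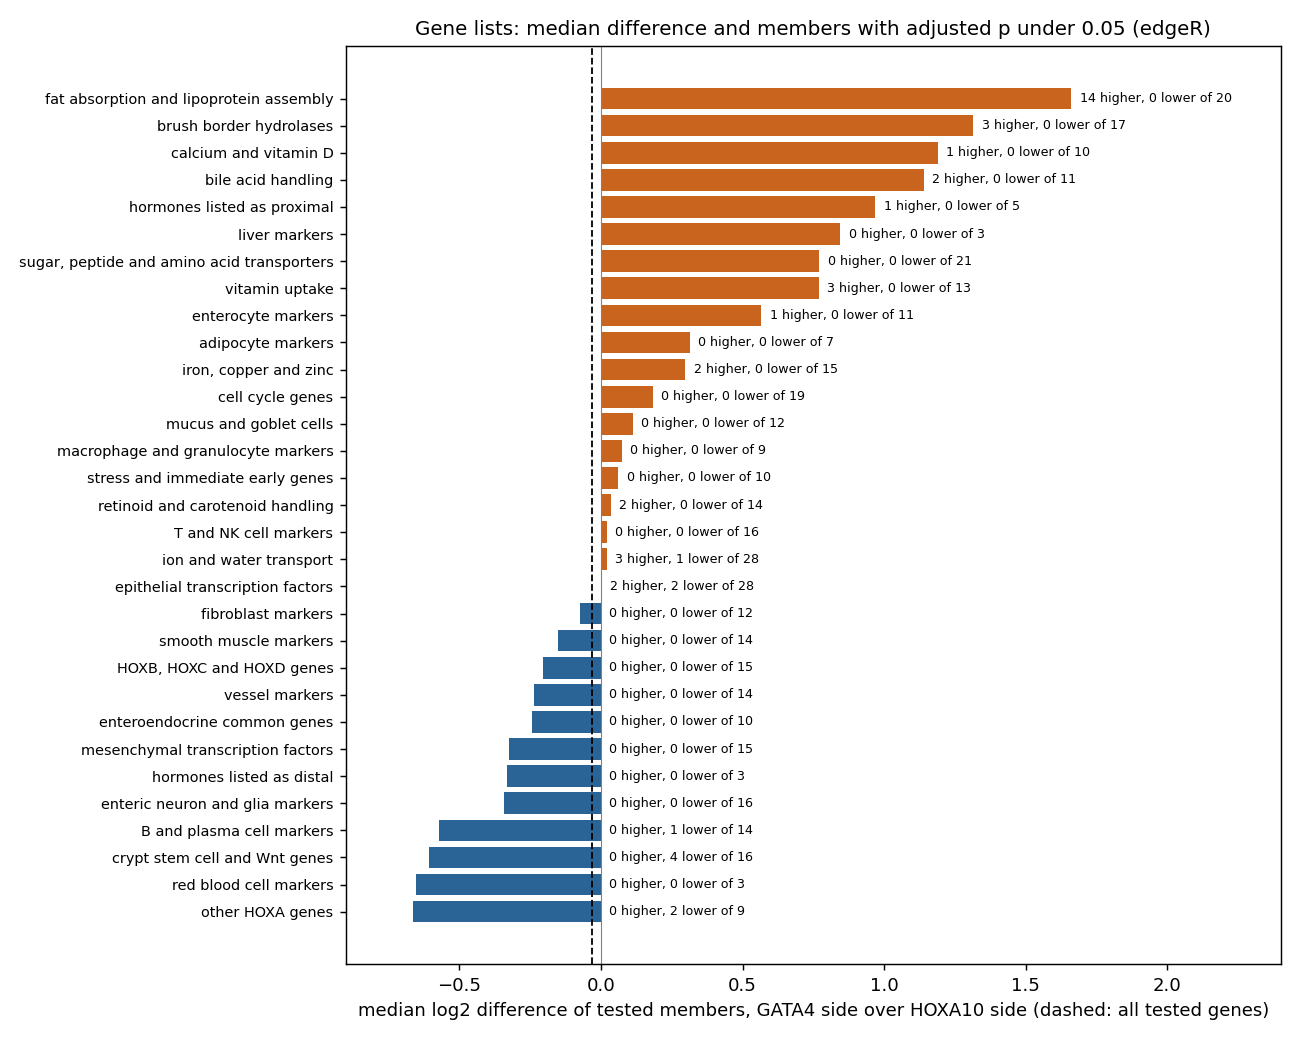
Median log2 difference, GATA4 side over HOXA10 side, of the tested members of each gene list with at least 3 of them, with the number called by edgeR beside each bar; the dashed line is the median of all tested genes, -0.03. Fat absorption and brush border genes lie at the top and the other HOXA genes at the bottom.

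With the side as a covariate, the diets themselves were compared in the same fit. LWG against Con gave 0 calls of 14861 genes (0%), with 1254 at an unadjusted p under 0.05 and a smallest adjusted p of 0.0773. HWG against Con gave 0 calls (0%) as well, with 1491 at an unadjusted p under 0.05 and a smallest adjusted p of 0.445. Without the side in the fit, 985 and 619 genes were at an unadjusted p under 0.05, and again 0 were called. The count for HWG rested on HWG 3: without that library, 49 genes were called higher and 104 lower in HWG. The HWG libraries then left on the GATA4 side were HWG 1 and HWG 2. Their smooth muscle sums were 24809 and 38894 CPM and their enterocyte sums 3438 and 3083 CPM. Diet and tissue makeup cannot be told apart in that fit. Without Con 3, 2 genes were called for LWG, and without Con 1 or HWG 1, 1 gene.

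Among the called genes the difference had 1 direction in all 3 diets, but its size varied. SCARB1 differed by 4.47 in Con, 4.31 in LWG and 1.68 in HWG, where HWG 1 and HWG 2 were low, and FABP6, which was not called, by 0.11 in Con, 1.29 in LWG and 2.6 in HWG, where HWG 4 was low. REG4 differed by -2.08 in Con, -1.01 in LWG and -2.15 in HWG, HOXA9 by -1.58 in Con, -1.82 in LWG and -3.05 in HWG, and NPC1L1 by 3.5 in Con, 4.71 in LWG and 2.29 in HWG. In HWG, the HOXA10 side was a single library, so its values there have no spread of their own, and the interaction test above called none of these differences between diets.

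**Figure D5:**
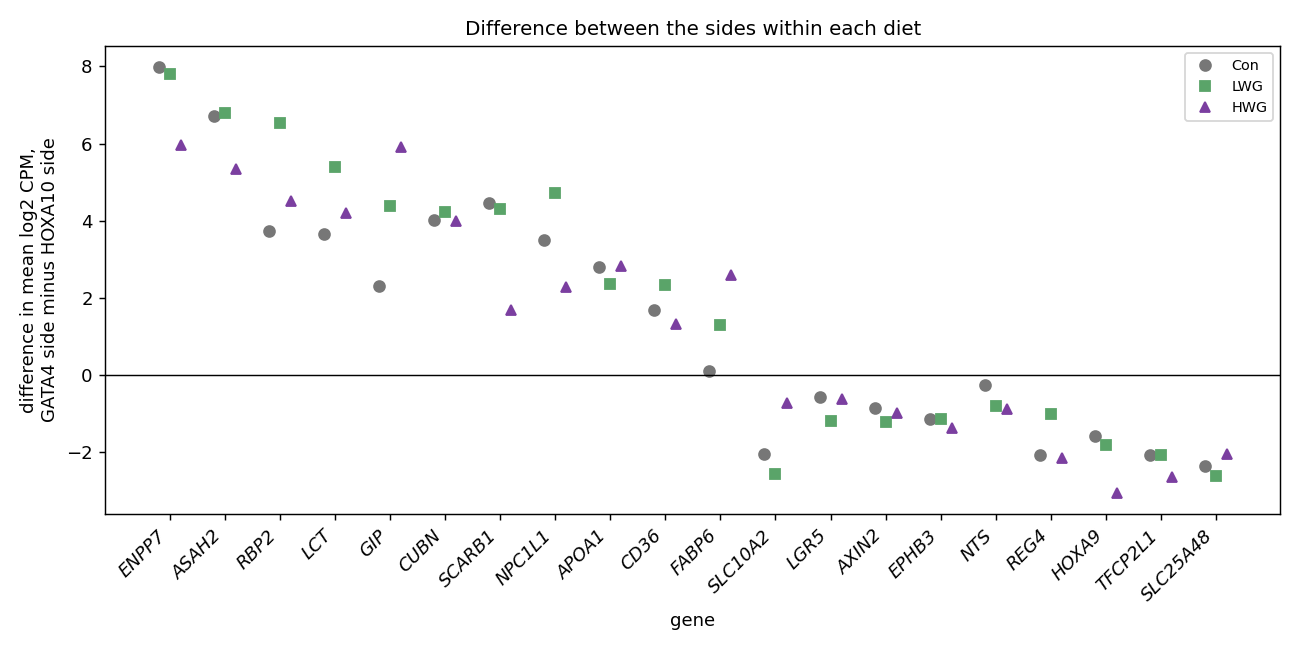
Difference between the mean log2 CPM of the GATA4 side and that of the HOXA10 side within each diet, for 20 named genes; each symbol is a diet, with 2 libraries on each side in Con and LWG, and 3 against 1 in HWG. ENPP7 lies at the top with 5.96 to 7.98, and HOXA9, TFCP2L1 and SLC25A48 are negative in all 3 diets.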

How the data were processed

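The authors filtered reads with fastp, aligned them with HISAT2, estimated transcript levels with StringTie and tested genes with edgeR; versions are not given in the sources used here. The authors deposited 1 table of 18007 genes that gives each goose a whole-number count and a value in FPKM. The deposited counts have no stated normalization. Small counts gathered at multiples of 4 (4 occurred 3148 times, 3 occurred 1250 and 5 occurred 1052 times), so 1 count does not stand for 1 read pair, and no counting intervals are given. The deposited FPKM values set the sides, in all 12 libraries.

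Names of LOC genes came from a RefSeq table of the assembly Taihu_goose_T2T_genome, which held 15158 of the gene numbers and named 848 of 6374 LOC genes. Its build differs from the authors', so no positions are given. No 2 of the 66 library pairs agreed within sampling noise (smallest chi-square per degree of freedom 97.0). The geese of a diet are separate animals, per the study.

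In R 4.3.3, edgeR 4.0.16 filtered genes with filterByExpr, scaled by TMM and fitted diet and side by quasi-likelihood, with GATA4 and HOXA10 left out of all counts of calls. CPM values are TMM-scaled. Within-diet differences are of mean log2 CPM with a prior count of 2. Alternatives were DESeq2 1.42.0, limma 3.58.1 on FPKM (mean of at least 0.5), other filters, size factors and covariates, a replicate block, and fits without each library. The tests were checked on simulated data. Python 3.11.15 with pandas 2.3.3, numpy 2.4.6 and matplotlib 3.10.9 made the tables and figures. The authors' own fold changes and p-values were not used.

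The sides, the gene lists and the tests were chosen with earlier results of these data known. Named genes were the 15 of smallest p among genes with a symbol, in either direction, up to 6 per list by p, and a set named whatever its values, from which a selection is described. MOGAT2, PLIN2, ABCG5, ABCG8 and the KEGG genes were chosen after their values were seen. Values of some single genes are not reported here.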

Additional observations from a re-analysis of the deposited data

Results flagged for a closer look

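For each of the 95 genes described or measured for the report, the highest and the lowest library of each side were compared with the other libraries of that side by Dixon's ratio of the gap to the range, at its critical values of 0.568 for 7 and 0.71 for 5 libraries. Of 190 groups, 20 values stood apart. The critical values set apart about 1 in 20 groups where values are normally distributed. The CPM values were not log-transformed and some groups hold zeros, so that rate need not hold here. All are TMM-scaled CPM.

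On the GATA4 side, LWG 4 stood apart in 5 genes. It had 251 CPM of GATA5 (next 104), 3351 of FABP1 (next 972), 7540 of FABP2 (next 2868), 918 of RBP2 (next 384) and 39.7 of SLC25A48 (next 15.7). Con 1 had 107 CPM of GIP (next 48.3) and 180.4 of GCG (next 121). Con 3 had 468 CPM of CYBRD1 (next 260.2) and 0.202 of HOXA11 (next 0.0664), LWG 3 had 238 of FGF19 (next 71.4), and HWG 2 had 0.0828 of HOXA13, where the other 6 libraries were at 0.

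On the HOXA10 side, LWG 1 stood apart in 4 genes, with 74.6 CPM of TMPRSS15 (next 9.97), 12.0 of FGF19 (next 2.19), 3.98 of REEP6 (next 2.07) and 36.0 of PAX5 (next 7.05). LWG 2 had 172 CPM of NR1H4 (next 99.0) and 222 of GCG (next 142). Con 2 had 3.93 CPM of ENPP7 (next 1.27) and 1.66 of CLDN2 (next 0.429), and HWG 4 had 59.7 of TFCP2L1 (next 31.9).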

How the results depend on the processing

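Against 360 higher and 95 lower calls, DESeq2 gave 990 and 447, limma on log2(FPKM + 0.1) 232 and 619, with a pseudocount of 1 239 and 650 and with 0.01 230 and 617, the side without diet 15 and 7, the smooth muscle covariate 555 and 162 and the enterocyte covariate (chosen after seeing the data) 230 and 66. DESeq2 gave no adjusted p for ASAH2, FABP1, FABP2, APOA1, APOB, CUBN, TMPRSS15, SLC5A1 and SLC10A2, so its counts of calls leave them out. Leaving out 1 library gave 73 to 484 higher and 13 to 156 lower calls. No filter, a mean FPKM of at least 1, DESeq2 size factors, counts divided by 4, a continuous GATA4 to HOXA10 axis and limma on TMM log2 CPM (also chosen after seeing the data) stayed within 1.5 times, the lower calls included. For LWG against Con, 0 calls became 4 without the filter and 13 with the smooth muscle covariate, and 0 to 2 without a library. For HWG against Con, they were 0 to 153 without a library. The cause of these changes was not tested.

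With the replicate number as a block, 16 genes were higher and 2 lower, and 4 were called for LWG and 0 for HWG. The labels do not say that a number marks a shared litter, batch or day: 6 of 12 same-numbered pairs had deviations correlated over 0.1 (r -0.27 to 0.37), and 4 of 12 libraries correlated best with their own number.

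Of 2427 values of 94 genes under the alternatives, 2044 kept their direction and their side of the threshold, 303 lost a call, 64 gained one and 16 turned direction. Those that turned belonged to GATA6, MYH11 and MUC2, which were called in no fit. GATA6 turned to -0.064 with the enterocyte covariate. MYH11 turned to 0.10 without diet, 0.47 with the replicate block, 0.34 with the enterocyte covariate, 0.05 without Con 3 and 0.10 without Con 4 (-0.31 to 0.10 over the leave-outs). MUC2 turned to -0.22, -0.21 and -0.22 with limma at pseudocounts of 0.1, 1 and 0.01, -0.12 without diet, -0.67 with the replicate block, -0.19 and -0.62 with the smooth muscle and enterocyte covariates, -0.027 with limma on TMM log2 CPM, -0.22 without Con 3 and -0.13 without HWG 3 (-0.22 to 0.37 over the leave-outs).

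A count does not stand for a read pair here, so a level of 0 or a few counts, as for HOXA11, HOXA13 and ONECUT2 on the side where they were low, sets no limit. The HOXA10 side holds 1 HWG library. The sides were defined by the libraries themselves, and p-values describe how far genes followed them.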
